A study of Mus musculus with 6 samples.

Results

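Neutrophils kill microbes with proteins stored in granules. The transcripts of 40 such proteins and proteins listed with them, together called granule genes here, were followed in neutrophils sorted from mouse lung. The 40 genes were a given list of azurophil, specific, gelatinase and secretory vesicle genes, found by gene identifier among the 55487 genes of the deposited count table. Of these, 39 carried the listed symbol in GENCODE M21, and Chi3l1 was found under its older symbol Chil1. The study compared 3 libraries from Mrp8-Cre;TGFbR2-fl/fl mice (mutant) with 3 libraries from Cre-negative TGFbR2-fl/fl littermates (wt). The mutants carried Tg(S100A8-cre,-EGFP)1Ilw, a transgene in which the promoter of S100A8, a calcium-binding protein of the granulocyte lineage, drives Cre recombinase together with EGFP. All mice of both groups carried the loxP-flanked Tgfbr2tm1Karl allele of the receptor gene, so the groups differ in the presence of the Cre transgene. Cells were sorted as Ly6G-positive from liberase-digested, PBS-perfused lungs. The sources used here give no age, and no label ties a library to 1 animal, so p-values measure the spread between libraries.

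As background, granules form in sequence while a neutrophil matures in the bone marrow. Azurophil granules with myeloperoxidase and serine proteases form at the promyelocyte stage, specific granules with lactoferrin at the myelocyte stage, gelatinase granules later, and secretory vesicles last. A granule protein is sorted by when its gene is transcribed, and the stored protein outlasts its transcript. A transcript level is therefore no measure of the protein held in the granules. Genes were placed by the textbook location of their protein: 9 azurophil genes, 18 specific granule genes, 4 gelatinase genes and 1 secretory vesicle gene. The remaining genes were 2 companions of the azurophil proteins that are not granule contents (Ms4a3 and Serpinb1a), 4 stefins, which are cytosolic inhibitors of cysteine proteases, and 2 others (Padi4 and Cst7).

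Library totals ran from 30403494 to 35906780 counts, and 15774 genes passed the filter on low counts. Tgfbr2, counted over all exons and so no check on the loss of the floxed part alone, averaged 187 ± 15.4 CPM in the mutant libraries and 191 ± 8.73 CPM in those of wt (SD over 3 libraries each; CPM is counts scaled to a common library size). The receptor gene for the growth factor G-CSF, Csf3r, was at 7682 to 9224 CPM in all libraries, while the sort marker Ly6g was at 14.4 to 35.2 CPM. Among 13 marker lists of neutrophils, cycling cells, progenitors and other lung and blood cells, summed CPM of the groups overlapped in 10. Epithelial markers (572 to 1036 CPM in mutants, 281 to 567 in wt) and fibroblast markers (779 to 1356 and 665 to 764 CPM) were higher in mutants. The summed early progenitor markers were lower in mutants (1189.9 to 1499.9 and 1572 to 1809.7 CPM), and most of that sum was Cd33, at 980 to 1539 CPM over the 6 libraries.

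Transcript levels of the 40 genes ran from 0 counts in all libraries to the 9th highest level of all genes. Levels of different genes were compared as TPM, counts divided by the summed exon length of the gene and scaled to the same total in each library. Together the 40 genes made up 3.16% to 3.47% of all TPM. By mean TPM over the 6 libraries, 9 genes stood above 1000, 8 between 100 and 1000, 9 between 10 and 100, 5 between 1 and 10, 7 above 0 but at most 1, and 2 at 0. Of the 9 azurophil genes, 4 were at 1 TPM or less, while of the 18 specific granule genes 12 were above 100 TPM and of the 4 gelatinase genes 3 were above 1000.

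**Figure D1:**
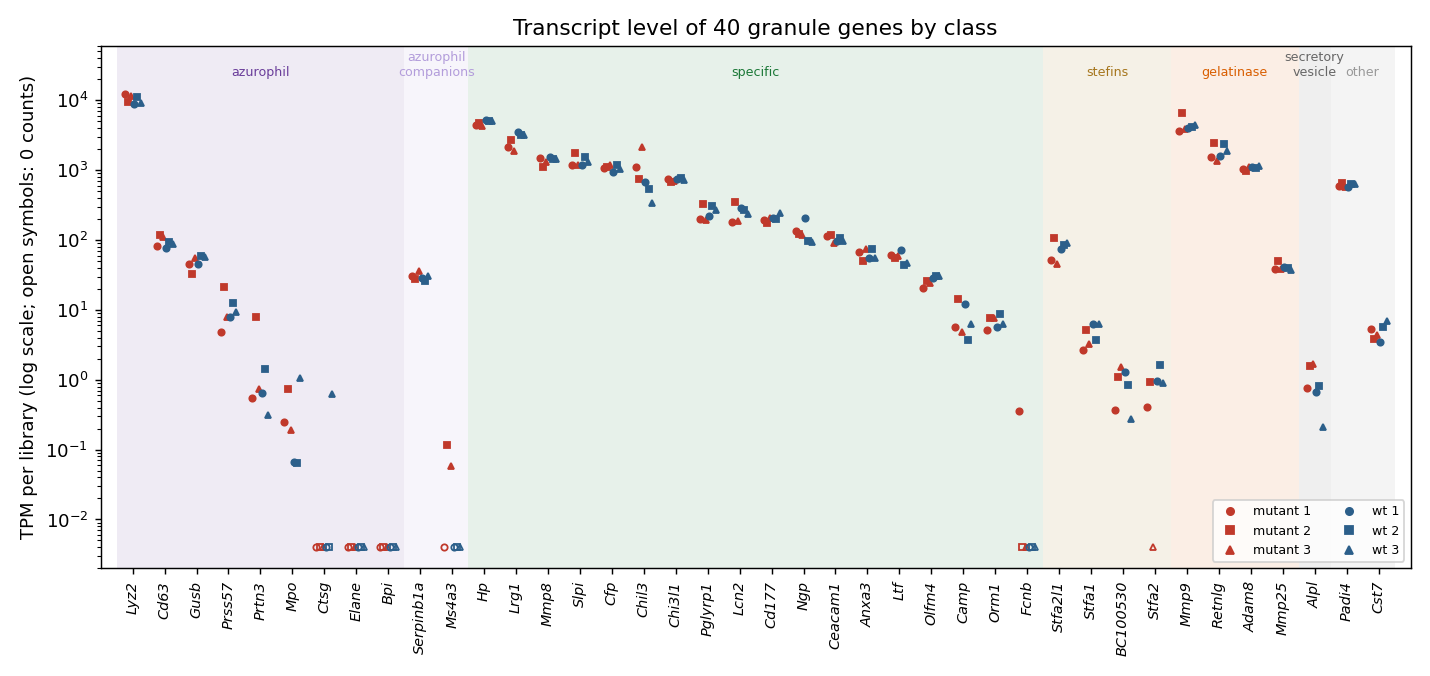
TPM of each of the 40 granule genes in each library, on a log axis, with genes grouped by class and ordered by mean level. Red symbols are mutant and blue symbols wt libraries, shape gives the replicate, and open symbols at the bottom are libraries with 0 counts. Azurophil genes run from Lyz2, above all other members, down to Elane and Bpi with 0 counts in every library.

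Among the azurophil genes, those of the classic killing enzymes were close to silent. Elane, the gene of neutrophil elastase (ENSMUSG00000020125.7, plus strand of chromosome 10, 79886247 to 79888215 in GRCm38), had 0 counts in all 6 libraries. A count of 0 allows up to 3 counts, or 0.0835 to 0.0987 CPM depending on the library. Bpi, encoding a protein that binds bacterial endotoxin, also had 0 counts in every library. Ctsg (cathepsin G) had 6 counts in wt replicate 3 and 0 in the other libraries. Mpo, encoding myeloperoxidase (chromosome 11, 87793581 to 87804413), had 9, 23 and 6 counts in mutants and 2, 2 and 34 in wt. The highest and the second highest Mpo counts thus came from different groups. Ms4a3, a membrane protein of granulocyte precursors, had at most 2 counts in any library. None of these 5 genes passed the filter on low counts, so none was tested. In bulk libraries such as these, fewer cells of a type and less RNA per cell cannot be told apart.

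Prtn3 and Prss57 were the only serine protease genes of this class that passed the filter. Prtn3 (proteinase 3; chromosome 10, 79874476 to 79883174) was at 0.276, 4.16 and 0.369 CPM in mutants and 0.328, 0.726 and 0.156 CPM in wt. Only mutant replicate 2 stood clear of the rest, and with it left out the log2 fold change turned from 1.98 to -0.32. Prss57 (serine protease 57) was at 3.98, 18.5 and 6.33 CPM in mutants and 6.46, 10.5 and 7.65 CPM in wt, again highest in mutant replicate 2. Both genes overlap a neighbour on the opposite strand, and strand cannot be told in these libraries. Prtn3 lies against Plppr3, which had 38 to 135 counts where Prtn3 had 5 to 123. Prss57 lies against Fstl3, which had 14 to 84 counts where Prss57 had 144 to 546, and 36% of the 100-base windows in Prss57 transcripts also occur in those of Fstl3. Plppr3 was also highest in mutant replicate 2 (135 counts), whereas Fstl3 was at 28 counts there, and their part in these values was not tested.

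Lyz2 alone made up 98.5% of the summed azurophil TPM. It encodes lysozyme, which is stored in all granule classes and is also made by macrophages and alveolar type 2 cells. It ranked 9th of all genes by TPM and was at 4668, 3797 and 4342 CPM in mutants and 3439, 4366 and 3469 CPM in wt. The groups overlapped, with mutant replicate 2 below wt replicate 2. Its log2 fold change was 0.18 with a 95% interval of -0.07 to 0.43. The lysosomal enzyme gene Gusb (beta-glucuronidase) was at 59.8, 45.8 and 71.9 CPM in mutants and 59.4, 80.3 and 75.5 CPM in wt, with overlap. Cd63, a membrane protein of azurophil granules and of late endosomes in many cells, was at 83.4 to 135 CPM over all libraries. Serpinb1a, the cytosolic inhibitor of elastase and related proteases, was at 20.4, 19.8 and 23.5 CPM in mutants and 19.3, 18.1 and 20.5 CPM in wt. A gene for the inhibitor was thus read in every library in which its target Elane had 0 counts.

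The specific granule class, the largest of the classes, held the most members with high transcript levels. Above 1000 TPM stood 5 of its 18 genes, against 3 of the 4 gelatinase genes. The leading specific granule genes were Hp and Lrg1 rather than the genes usually taken as markers of the class. Hp, encoding haptoglobin, which binds free haemoglobin, ranked 25th of all genes and gave 33.9% of the summed level of the class. Lrg1, encoding the leucine-rich glycoprotein LRG1, followed with a mean of 2756 TPM, and the collagenase gene Mmp8, the protease inhibitor gene Slpi and the complement properdin gene Cfp with 1388, 1372 and 1089 TPM. Chil3 (the chitinase-like protein Ym1) and Chi3l1 (another chitinase-like protein) were at 924 and 727 TPM on average. The peptidoglycan-binding protein gene Pglyrp1, the siderophore-binding lipocalin gene Lcn2 and Cd177, a surface protein that presents proteinase 3, were at 254, 252 and 203 TPM.

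The genes that mark the myelocyte stage were lower. Ltf (lactoferrin) had a mean of 56.5 TPM, Ngp (neutrophilic granule protein) of 129 TPM and Camp (the antimicrobial peptide cathelicidin) of 7.76 TPM. In CPM, Ngp was at 47.4, 46.7 and 41.2 in mutants and 74.4, 35.8 and 33.2 in wt, and Ltf at 61.4, 59.7 and 58.0 in mutants and 72.9, 44.6 and 46.9 in wt. Both were highest in wt replicate 1, and for both the mutants lay between the wt extremes. Camp was at 1.24, 3.32 and 1.04 CPM in mutants and 2.66, 0.825 and 1.37 CPM in wt, so mutant replicate 2 and wt replicate 1 were its 2 highest libraries. Fcnb, the pattern recognition lectin ficolin B, had 5 counts in mutant replicate 1 and 0 elsewhere and was not tested. Olfm4 (olfactomedin 4, made by a subset of neutrophils) had a mean of 26.8 TPM, Anxa3 (annexin A3) of 62.5 TPM, the adhesion receptor gene Ceacam1 of 104 TPM and the acute phase protein gene Orm1 of 6.87 TPM.

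Of the gelatinase granule genes, Mmp9 (gelatinase B) ranked 28th of all genes by TPM. It was at 3752, 7255 and 3870.2 CPM in mutants and 4187, 4446 and 4629 CPM in wt. Mutant replicate 2 was the highest library and the other mutants were the lowest, so the sign of its difference rested on that library (log2 fold change 0.17, and -0.21 without it). Retnlg (resistin-like gamma, a secreted protein of neutrophils) was at 260.4, 448 and 226 CPM in mutants and 276, 419 and 327 CPM in wt. Adam8, a membrane metalloprotease that sheds adhesion molecules, varied least between libraries among members with a mean of at least 10 CPM, at 1369, 1373 and 1444 CPM in mutants and 1524, 1507 and 1575 CPM in wt. Its groups did not overlap, and the log2 fold change was -0.14 with a 95% interval of -0.31 to 0.03. Mmp25, a membrane-anchored metalloprotease, was at 57.9 to 81.8 CPM over all libraries.

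Alpl, the alkaline phosphatase that marks secretory vesicles, had few counts. It had 32, 58 and 62 counts in mutants and 24, 30 and 8 in wt, or 0.884, 1.96 and 1.91 CPM against 0.788, 0.990 and 0.250 CPM. Its groups overlapped, and its log2 fold change of 1.22 had a 95% interval of -0.40 to 2.85. Of the stefins, Stfa2l1 was the main transcript at a mean of 75.8 TPM, Stfa1 was at 4.56 TPM, and Stfa2 and BC100530 had at most 11 counts in any library and were not tested. Padi4, the enzyme that citrullinates histones during release of neutrophil extracellular traps, was at 828, 971 and 777 CPM in mutants and 822, 918 and 895 CPM in wt. Cst7 (cystatin F, an inhibitor of lysosomal proteases) was at 0.984 to 1.97 CPM.

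Mutant replicate 2 was the highest library for 14 of the 32 tested members, 43.8% of them, against 17.4% of all tested genes. Mutant replicate 1 was the highest library for 1 member (15.9% of all genes) and the lowest for 8 (16.3% of all genes). Mutant replicate 3 was the highest for 2 (18% of all genes) and the lowest for 9 (16.9% of all genes). Lcn2 shows this pattern: it was at 139, 285 and 140.2 CPM in mutants and 217, 213 and 179 CPM in wt. Pglyrp1 was at 107, 187 and 102 CPM in mutants and 119, 168 and 145 CPM in wt, and Slpi at 399.6, 646 and 401 CPM and 415, 552 and 454 CPM. In these genes, as in Prss57, Mmp9, Retnlg and Stfa2l1, mutant replicate 2 was the highest and both other mutants lay below every wt library. Retnlg, Pglyrp1 and Slpi were also high in wt replicate 2. Chil3, Ngp, Ltf, Gusb and Anxa3 did not share the pattern. Mutant replicate 2 was the highest library for 14 members, so leaving it out is bound to lower their log2 fold changes. The counts without it therefore cannot show a lowering of granule genes. Without mutant replicate 2, 24 of 32 members were lower in mutants by the sign of the log2 fold change and 8 higher. Their median was then -0.14, while over all genes the median was 0.0045 and 50.5% had a positive sign. Leaving out mutant replicate 1 or mutant replicate 3 instead gave 18 positive and 14 negative members in each case, with medians of 0.05. With all libraries 15 of 32 had a positive sign, where 50.7% of all tested genes did, and the median was -0.02.

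**Figure D2:**
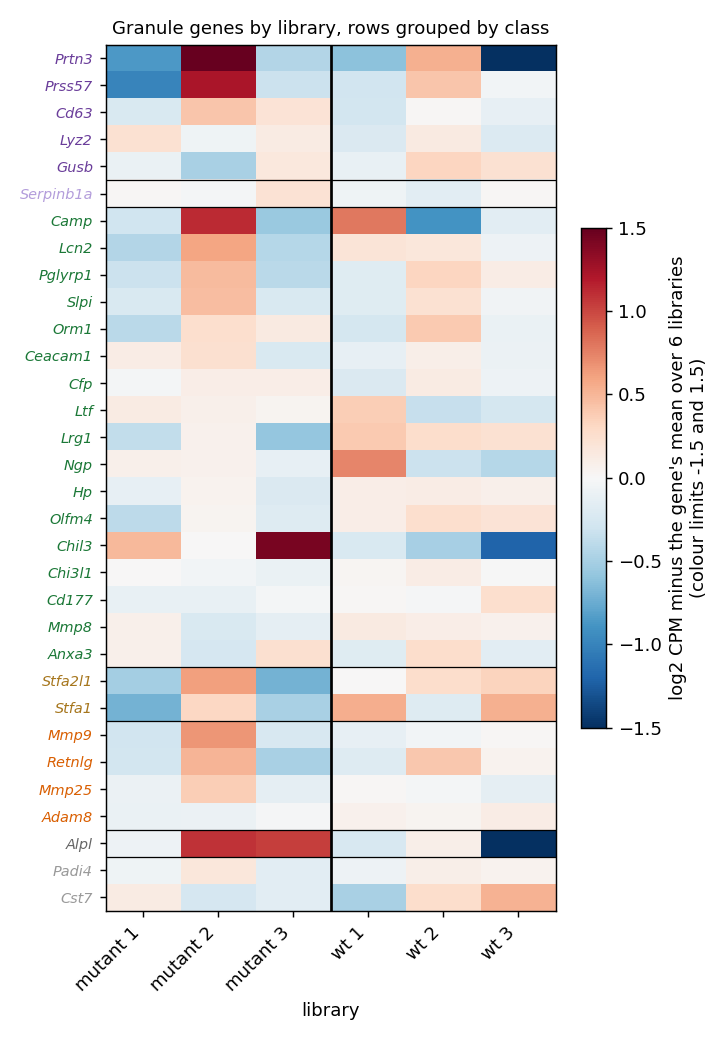
Colour gives log2 CPM of each tested granule gene in each library minus the mean of that gene over the 6 libraries, with rows grouped by class and name colours marking the class. The column of mutant replicate 2 is red for Camp, Lcn2, Pglyrp1, Slpi, Mmp9 and Retnlg, while mutant replicate 3 is deep red for Chil3.

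Promoter sequences of 6 members are given here because their transcripts mark the extremes described: Elane with 0 counts, Lcn2, Retnlg and Pglyrp1 highest in mutant replicate 2, and Chil3 and Lrg1 with the smallest p-values of the mutant against wt test. Each is the 250 bases before the RefSeq start of the gene in GRCm38.p6, written 5′ to 3′ on the strand of the gene. Capitals mark matches to TTNNGNAA on either strand, an 8-base pattern of the kind bound by C/EBP factors, which drive granule genes.
Elane, chr10:79886062-79886311, plus strand: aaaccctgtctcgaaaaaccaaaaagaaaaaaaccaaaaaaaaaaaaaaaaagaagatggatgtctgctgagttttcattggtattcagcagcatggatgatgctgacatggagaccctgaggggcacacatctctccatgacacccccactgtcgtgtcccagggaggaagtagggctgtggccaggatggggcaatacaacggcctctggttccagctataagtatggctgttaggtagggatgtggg
Lcn2, chr2:32387740-32387989, minus strand: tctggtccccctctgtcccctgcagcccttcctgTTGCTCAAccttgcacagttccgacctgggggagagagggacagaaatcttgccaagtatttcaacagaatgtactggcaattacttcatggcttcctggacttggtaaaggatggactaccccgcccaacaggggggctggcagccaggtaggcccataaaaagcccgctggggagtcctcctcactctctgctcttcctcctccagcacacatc
Retnlg, chr16:48872358-48872607, plus strand: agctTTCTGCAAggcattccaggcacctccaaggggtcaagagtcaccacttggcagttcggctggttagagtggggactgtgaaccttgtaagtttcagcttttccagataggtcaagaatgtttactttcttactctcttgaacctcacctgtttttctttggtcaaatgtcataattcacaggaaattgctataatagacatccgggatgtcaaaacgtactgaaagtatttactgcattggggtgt
Pglyrp1, chr7:18884440-18884689, plus strand: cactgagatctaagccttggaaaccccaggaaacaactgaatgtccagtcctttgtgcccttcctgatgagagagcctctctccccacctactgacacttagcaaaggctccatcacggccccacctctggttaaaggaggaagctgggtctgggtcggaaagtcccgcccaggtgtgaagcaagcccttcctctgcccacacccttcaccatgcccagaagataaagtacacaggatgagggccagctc
Chil3, chr3:106167565-106167814, minus strand: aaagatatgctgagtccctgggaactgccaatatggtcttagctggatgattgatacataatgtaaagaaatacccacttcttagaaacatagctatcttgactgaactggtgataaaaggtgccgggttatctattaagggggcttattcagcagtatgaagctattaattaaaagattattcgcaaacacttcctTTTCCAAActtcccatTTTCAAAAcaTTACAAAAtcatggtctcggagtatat
Lrg1, chr17:56121947-56122196, minus strand: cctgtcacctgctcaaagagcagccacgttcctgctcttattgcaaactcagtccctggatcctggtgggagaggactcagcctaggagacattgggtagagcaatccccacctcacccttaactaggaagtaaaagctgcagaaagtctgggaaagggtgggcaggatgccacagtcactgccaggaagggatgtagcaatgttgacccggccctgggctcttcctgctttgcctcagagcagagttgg
The RefSeq promoter table used here was matched by 33 of the 40 genes. The C/EBP-type pattern was in 19 of these 33 windows, 57.6%, against 36.9% of the first listed promoters of 27025 genes. The pattern GAGGAA, of the kind bound by PU.1 and searched on both strands, can overlap the first pattern and was in 17 of 33, 51.5%, against 23.1% of all. Chil3 held 3 matches to the C/EBP-type pattern, Lcn2 and Retnlg 1 each, and the other printed windows 0. A match describes letters only, and a window without one says nothing about binding.

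Between mutant and wt, 0 of the 32 tested granule genes passed an adjusted p of 0.05 over all 15774 genes by edgeR's quasi-likelihood test with Benjamini-Hochberg adjustment. Over all genes 0.00634% passed. At an unadjusted p under 0.05 there were 2 members, where 6.73% of all genes were. These were Chil3, higher (3.51% of all genes), and Lrg1, lower (3.22% of all genes). DESeq2's Wald test called 1 member, Lrg1, where it called 0.983% of the genes to which it gave an adjusted p, and limma-voom called 0 members and 0.00634% of all genes. When genes averaging under 10 CPM were left out, edgeR called 0 of 24 members and 0.261% of all. In 6 of the 32 members all libraries of one group lay beyond all of the other, against 13% of all tested genes. In 1 of these the mutants were above (Chil3; 6.82% of all genes) and in 5 below (Lrg1, Hp, Olfm4, Cd177 and Adam8; 6.21% of all genes). The 8 untested members were Mpo, Elane, Ctsg, Bpi, Ms4a3, Fcnb, Stfa2 and BC100530.

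**Figure D3:**
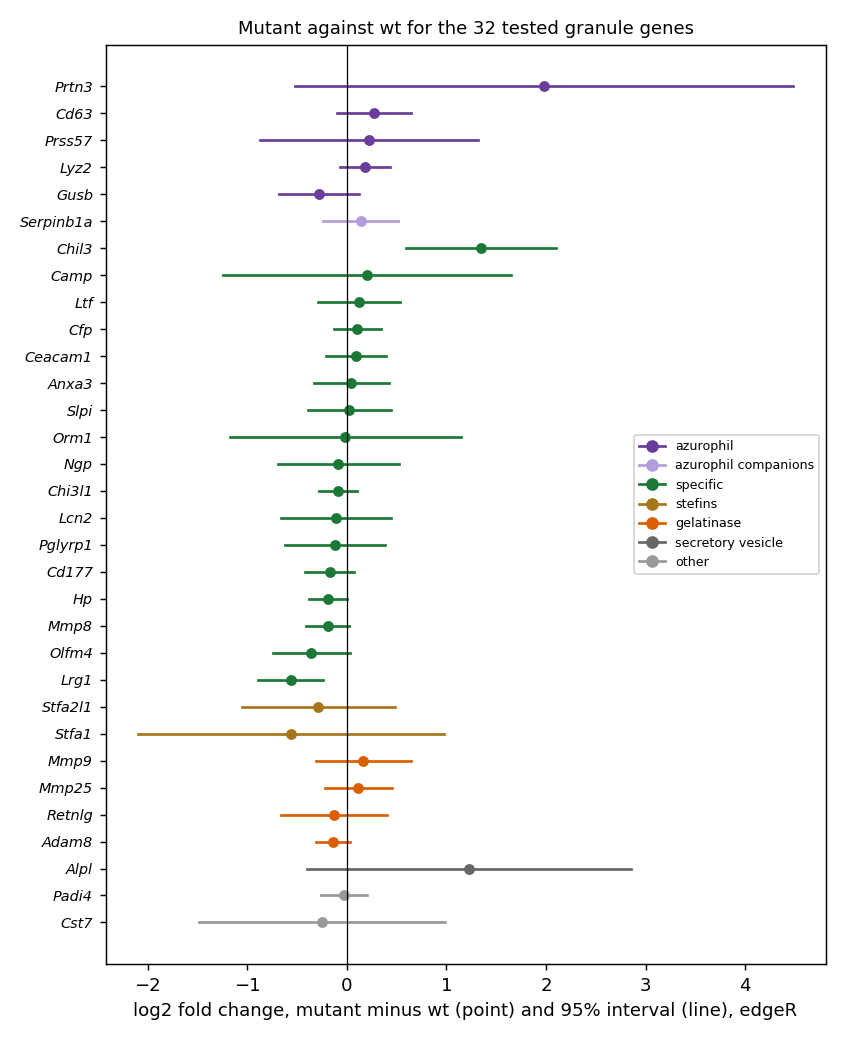
Points are log2 fold changes of mutant minus wt for the 32 tested granule genes by edgeR, and lines are their 95% intervals, coloured by class. The intervals of Chil3 and Lrg1 lie to one side of 0, and those of the low genes Prtn3, Stfa1, Camp and Alpl are the widest.

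Lrg1 (ENSMUSG00000037095.8, minus strand of chromosome 17, 56119678 to 56122001 in GRCm38) was at 859, 1163 and 746 CPM in mutants and 1459.8, 1333 and 1298 CPM in wt. All mutants lay below all wt libraries, and mutant replicate 2 came nearest to them. The mean was 923 ± 216 CPM in the mutant libraries and 1364 ± 85.1 CPM in those of wt (SD over 3 libraries each), a log2 fold change of -0.56 ± 0.15 (SE). The adjusted p was 0.369 by edgeR and 0.0253 by DESeq2. It was 0.0313 by edgeR with no filter on low counts, where 0.268% of genes passed, and lay between 0.0253 and 0.74 over all alternatives tried. The negative sign held in each of them. Lrg1 is also made by endothelial cells, and the sum of 10 endothelial markers, none at 0 in all libraries, was 1513, 1274 and 1569 CPM in mutants and 1609, 1430.2 and 1766 CPM in wt, with overlap. All 10 had a negative log2 fold change, and their part in the Lrg1 values was not tested.

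Chil3 (ENSMUSG00000040809.10, minus strand of chromosome 3, 106147554 to 106167564) was at 521, 372 and 999 CPM in mutants and 318, 264 and 162 CPM in wt. All mutants lay above all wt libraries, and it was the member that varied most between libraries among those with a mean of at least 10 CPM, 6.17-fold from the lowest to the highest, against a median of 1.49-fold for the 24 members of that level and 1.47-fold for all genes of that level. The mean was 630.3 ± 328 CPM in the mutant libraries and 248 ± 79.5 CPM in those of wt (SD over 3 libraries each), a log2 fold change of 1.35 ± 0.34 (SE) with an edgeR adjusted p of 0.345. Without mutant replicate 3 the log2 fold change fell to 0.85 (adjusted p = 0.671). With no filter on low counts the edgeR adjusted p was 0.000928, and over all alternatives it ran from 0.000928 to 0.671.

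Alveolar macrophages are a rich source of Chil3, and Lyz2 is also made by alveolar type 2 cells, so marker values stand beside both genes. Of 14 alveolar macrophage markers 12 had a positive log2 fold change and none was at 0 in all libraries. Their summed level was 697, 595 and 666 CPM in mutants and 614, 629 and 552 CPM in wt, so the groups overlapped. Abcg1, at 307 to 385 CPM, gave the largest share. By edgeR, 4 of the 14 were higher at an unadjusted p under 0.05 and 0 lower (3.51% and 3.22% of all genes). In 3 all mutants lay above all wt libraries and in 0 below (6.82% and 6.21% of all genes). The scavenger receptor gene Marco was at 7.37, 8.80 and 10.97 CPM in mutants and 8.14, 3.96 and 3.87 CPM in wt. Of 10 fibroblast markers, 6 were higher by edgeR at an unadjusted p under 0.05 and 0 lower, and DESeq2 called 1 higher. In 6 all mutants lay above all wt libraries and in 0 below. Of 14 epithelial markers, 8 were higher by edgeR at an unadjusted p under 0.05 and 0 lower, and DESeq2 called 2 higher. In 6 all mutants lay above all wt libraries and in 1 below. The shares of all genes are those just given, and DESeq2 called 0.983%. Of the 14 epithelial markers 12 were positive and none was at 0 in all libraries. Their sum was 572, 648 and 1036 CPM in mutants and 332, 567 and 281 CPM in wt, highest in mutant replicate 3, as for Chil3, and lowest in wt replicate 3, as for Chil3. The part of such cells in the Chil3 and Lyz2 values was not tested. The near copy Chil4 had the same lowest and highest libraries as Chil3, at 2.84, 1.76 and 4.89 CPM in mutants and 1.38, 1.55 and 0.718 CPM in wt. Of the 100-base windows in Chil3 transcripts, 4.93% also occur in those of another gene.

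**Figure D4:**
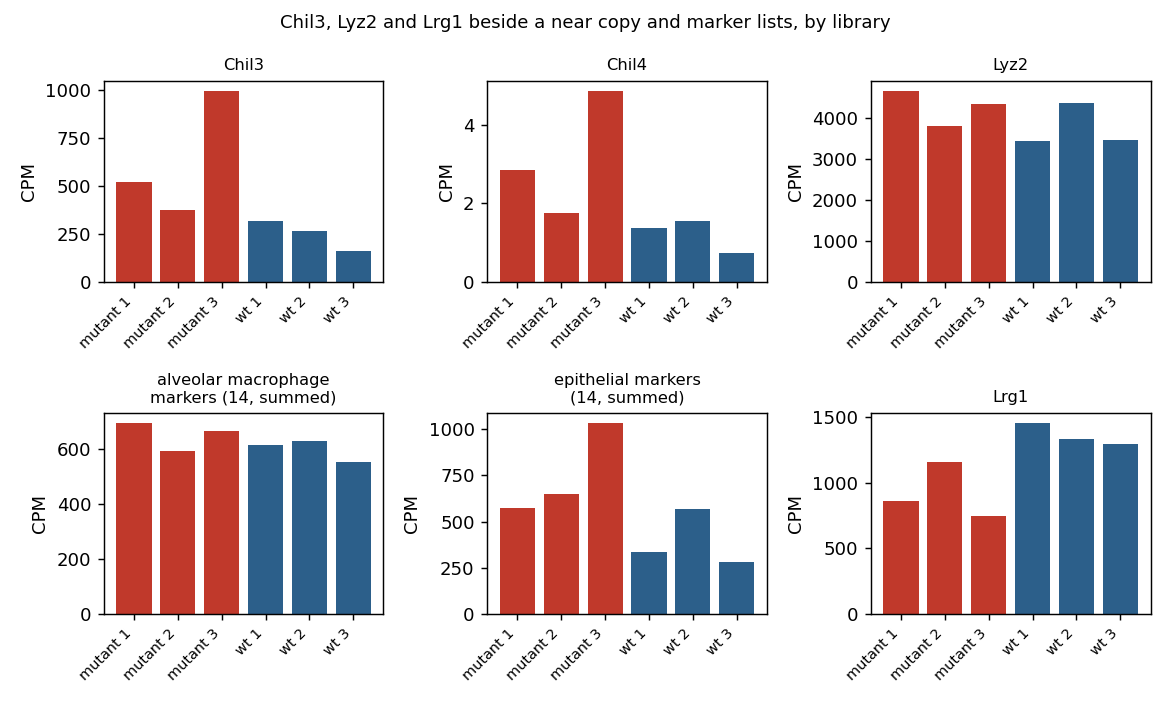
Bars give CPM in each library for Chil3, its near copy Chil4, Lyz2, the summed alveolar macrophage markers, the summed epithelial markers and Lrg1, with mutants in red and wt in blue. Chil3, Chil4 and the epithelial markers are highest in mutant replicate 3 and lowest in wt replicate 3, while Lrg1 is lowest in mutant replicate 3.

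The remaining members whose groups did not overlap differed by little. Hp was at 2075, 2337 and 1944 CPM in mutants and 2422, 2447 and 2385 CPM in wt, a log2 fold change of -0.19 with a 95% interval from -0.38 to just above 0 and an edgeR adjusted p of 0.749. Olfm4 was at 17.6, 23.7 and 20.1 CPM in mutants and 24.7, 27.4 and 26.5 CPM in wt (log2 fold change -0.36, 95% interval -0.74 to 0.03). Cd177 was at 157, 156 and 166 CPM in mutants and 171, 167 and 202 CPM in wt (log2 fold change -0.17, 95% interval -0.42 to 0.07). Mmp8, at 1038, 836 and 894 CPM in mutants and 1077, 1052 and 1031 CPM in wt, overlapped through mutant replicate 1 alone. Cfp, at 545, 591 and 592 CPM in mutants and 477, 604 and 526 CPM in wt, and Chi3l1, at 601, 581 and 559 CPM and 608, 649 and 596 CPM, overlapped as well. For Chi3l1 the 95% interval of the log2 fold change was -0.28 to 0.10 and for Padi4 -0.26 to 0.20, among the narrowest of the members.

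The summed TPM of the specific granule genes was lower in every mutant library than in every wt library, by a small amount. Their summed TPM was 13179, 14049 and 13641 in mutants and 14981, 14928.5 and 14188 in wt, and the means were 13623 ± 435 and 14699 ± 444 (SD, n = 3 each). Of the 17 tested members of the class, 7 had a positive log2 fold change and 10 a negative one. Lrg1 alone averaged 2219 TPM in mutants and 3293 TPM in wt, a gap about as large as that between the class means. The lower sums therefore do not show a lowering shared across the class. Chil3, higher in all mutants than in wt, was left out after seeing the data, which could only widen the gap. The class sums were then 12073, 13312 and 11487.8 in mutants and 14313, 14386 and 13849 in wt. Sums without Lrg1 were not computed. Genes of neutrophil identity outside the class stood beside this: of 10 such markers, Mmp9 among them, 8 were lower in mutants by sign. The median log2 fold change of the 10 was -0.10. In 2 of them all mutants lay below all wt libraries, as in 6.21% of all tested genes. These 2 were the chemokine receptor gene Cxcr2, at 1989, 2134 and 1944 CPM in mutants and 2620.1, 2472 and 2603 CPM in wt, and S100a8, at 965, 1505 and 972 CPM in mutants and 1686, 1749.9 and 1687 CPM in wt. DESeq2 called both lower (adjusted p = 0.0161 and 0.0341), while the edgeR adjusted p was 0.294 and 0.405. Of all genes given an adjusted p, DESeq2 called 0.983%. The part of neutrophil content in the sum of the class was not tested. Hp and Lrg1, the 2 most abundant members of the class, are both among the genes whose groups did not overlap. Summed azurophil TPM was 12434.5, 9527 and 11784 in mutants and 9081, 11289 and 9170.1 in wt, with overlap, and without Lyz2 it was 132, 181 and 176 against 131, 167 and 154. Gelatinase genes summed to 6262, 10096 and 6320 TPM in mutants and 6811, 7707 and 7559 TPM in wt, so that wt lay between the mutant extremes. The stefins summed to 55.6, 113 and 50.6 TPM in mutants and 81.8, 92.3 and 99.3 TPM in wt, again with mutant replicate 2 highest. No p is given for these sums, since the members were chosen with earlier results known.

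**Figure D5:**
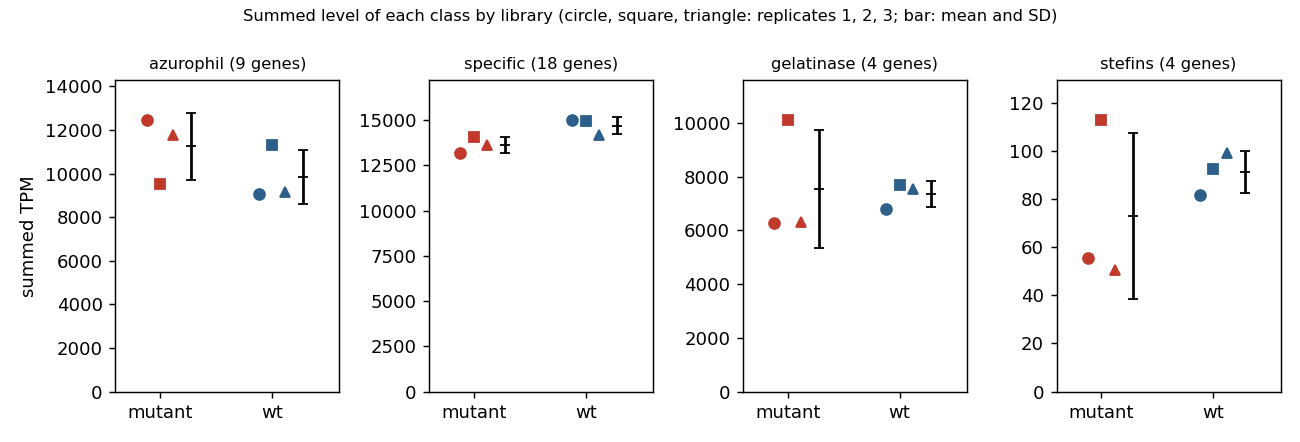
Summed TPM of the azurophil, specific, gelatinase and stefin genes in each library, with the mean and SD of each group beside the points and axes starting at 0. Specific granule sums of mutants (13179 to 14049) lie below those of wt (14188 to 14981), while in the other 3 classes the groups overlap. The gap between the specific granule means is about as large as that of Lrg1 alone.

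Genes that make, fill and release granules were described from lists of other pathway genes, and 0 of them passed over all genes by edgeR. Of 10 transcription factors of granule genes, 3 had a positive log2 fold change and 7 did not, and the median was -0.07, beside a median of 0.01 over all genes. At an unadjusted p under 0.05 there was 1, lower, as were 3.22% of all genes. DESeq2 and limma-voom called 0 of the 10. Cebpe, the C/EBP factor needed for specific granules, was at 7.57, 14.5 and 10.02 CPM in mutants and 7.61, 7.79 and 4.68 CPM in wt, highest in mutant replicate 2. Cebpd, a C/EBP factor of later stages and of inflammation, was at 327, 303 and 302 CPM in mutants and 333, 404 and 373 CPM in wt (edgeR adjusted p = 0.675).

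Of 18 genes that process or pack granule proteins, 11 were positive and 7 negative, and the median was 0.04. At an unadjusted p under 0.05, 1 was higher, as were 3.51% of all genes. That gene was Ctsc, encoding cathepsin C, which activates the granule serine proteases. It was at 90.9, 64.8 and 91.8 CPM in mutants and 49.9, 53.3 and 52.8 CPM in wt, with all mutants above wt. Its log2 fold change was 0.67 ± 0.15 (SE), with an adjusted p of 0.294 by edgeR and 0.00839 by DESeq2. The transcripts of its substrates Elane and Ctsg were at or near 0 counts in the same libraries, as given above. Ap3b1, a subunit of the AP-3 adaptor that sorts elastase, was at 69.4, 70.8 and 68.9 CPM in mutants and 67.8, 87.3 and 91.3 CPM in wt.

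Of 21 granule exocytosis genes 9 were positive and 12 negative, and the median was -0.04. At an unadjusted p under 0.05, 1 was higher, as were 3.51% of all genes. Stx6, a syntaxin of the trans-Golgi network, was at 70.5, 59.8 and 67.8 CPM in mutants and 51.9, 54.4 and 52.1 CPM in wt (edgeR adjusted p = 0.63). Stxbp3, which binds syntaxins, was at 47.5, 35.2 and 49.996 CPM in mutants and 56.2, 56.0 and 53.1 CPM in wt (edgeR adjusted p = 0.777). Of 29 other genes of granule contents and membranes 15 were positive and 14 negative, and an unadjusted p under 0.05 was reached by 6 that were higher and by 1 that was lower, where 3.51% and 3.22% of all genes did so. Among them the aminopeptidase gene Anpep was at 2.38, 2.23 and 3.63 CPM in mutants and 0.984, 0.726 and 1.06 CPM in wt, and the acid glucosidase gene Gaa at 41.6, 47.7 and 49.9 CPM and 30.9, 31.2 and 38.9997 CPM, both without overlap. DESeq2 called 0 of the genes in these 2 lists, and limma-voom 0 as well.

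Of 13 inhibitors of granule proteases 8 were positive and 5 negative, and 2 were lower at an unadjusted p under 0.05, as were 3.22% of all genes. Wfdc17, a small inhibitor-like protein with a whey acidic protein domain, was at 26.2, 37.5 and 17.9 CPM in mutants and 63.2, 45.8 and 50.1 CPM in wt, without overlap. Its log2 fold change was -0.96 ± 0.25 (SE), with an adjusted p of 0.368 by edgeR and 0.0165 by DESeq2, which called 0.983% of all genes. Wfdc21 was at 3.59, 9.07 and 4.09 CPM in mutants and 9.32, 9.83 and 10.2 CPM in wt, with mutant replicate 2 nearest to wt, as for Lrg1. Of 10 tested near copies of granule genes 6 were positive and 4 negative, and 0 were called by DESeq2 or limma-voom. At an unadjusted p under 0.05, 1 was higher, Chil4, as were 3.51% of all genes. Lyz1, the copy of Lyz2, was at 42.1, 38.8 and 58.8 CPM in mutants and 31.8, 41.0 and 32.2 CPM in wt, with overlap. Counts of members with near copies are uncertain where reads can be split: windows shared with another gene made up 20.5% of Ceacam1 (with Ceacam2), 15.6% of BC100530, 6.95% of Orm1 and 5.07% of Stfa1, and 1.97% of Lyz2.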

How the data were processed

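RNA-seq was made from lung neutrophils by SMART-Seq v2, which does not mark strand, and read as paired ends of 151 cycles, per the labels' protocols. The authors deposited raw read counts per gene with summed exon lengths, per the file headers; STAR, featureCounts and GRCm38 are named in the submitters' processing notes, while the sources used here give neither versions nor the strand setting. Counts include PCR copies, so the limit of 3 counts covers counting error only.

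Symbols came from GENCODE M21 (55094 identifiers matched exactly, 300 without version, 93 not at all). Of its rows, 0 were spike-ins. Genes were kept by filterByExpr (minimum count 10), scaled by TMM (0.972 to 1.03) and tested by edgeR 4.0.16 in R 4.3.3, quasi-likelihood, at 5% Benjamini-Hochberg over 15774 genes. DESeq2 1.42.0, limma-voom (limma 3.58.1), other scalings, other filters and leaving out each library were alternatives. All 40 members are named, and of each pathway list the members called or, with none, the 2 with the smallest p. Simulated data held 50 changed genes at each of 1.5-fold, 2-fold, 4-fold and 8-fold. In these the fit recovered 4% of 1.5-fold, 32% of 2-fold and 52% of 4-fold changes, with 6 false calls. So many changed genes ease the Benjamini-Hochberg cutoff, so recovery in the real data may be lower. Replicate numbers follow accession order. Members, classes and lists were chosen with earlier results of these data known. Promoters are from RefSeq (GRCm38.p6).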

Additional observations from a re-analysis of the deposited data

How the results depend on the processing

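By edgeR 0 granule genes and 0 pathway genes passed in either direction. With no filter on low counts, 1 granule gene was called higher (Chil3) and 1 lower (Lrg1), and 1 pathway gene higher (Ctsc, adjusted p = 0.0464) and 1 lower (Wfdc17, adjusted p = 0.0176). DESeq2 called 1 granule gene lower (Lrg1), 1 pathway gene higher (Ctsc) and 1 lower (Wfdc17). The cause was not tested. Without Chil3, an alternative chosen after seeing the data, the log2 ratio of the summed specific granule genes moved from -0.11 to -0.21. Scaled by library totals, mutant replicate 3 was the highest library for 5 members in place of 2. By limma-voom the log2 fold changes of Prss57 (-0.11), Ngp (0.0187) and Slpi (-0.0085) changed sign. Leaving out 1 library at a time changed the sign of 15 uncalled genes, whose log2 fold changes then ran from -0.32 to 2.71 (Prtn3), -0.67 to 0.60 (Prss57), -0.0037 to 0.39 (Ltf), -0.50 to 0.76 (Camp), -0.29 to 0.39 (Ngp), -0.54 to 0.0711 (Lcn2), -0.15 to 0.20 (Orm1), -0.0143 to 0.21 (Ceacam1), -0.0698 to 0.21 (Anxa3), -0.21 to 0.33 (Mmp9), -0.0595 to 0.21 (Mmp25), -0.49 to 0.0578 (Retnlg), -0.24 to 0.15 (Slpi), -0.46 to 0.034 (Pglyrp1) and -0.13 to 0.0344 (Padi4). The log2 ratio of the summed gelatinase genes, 0.0034, was -0.0014 with classes by the order of the given list, -0.22 without mutant replicate 2 and -0.05 without wt replicate 1. That of Padi4 and Cst7 summed, -0.04, was 0.0098 without mutant replicate 3. No comparison is given for the 8 members that did not pass the filter on low counts. No paired analysis was possible because the labels give no replicate numbers that the groups share.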
